A study of Mus musculus with 2 samples.

Results

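The chaperone and heat shock genes of mouse primordial germ cells (PGCs) at embryonic day 9.5 were chosen by symbol. The set took every gene whose symbol began with Hsp and a family letter or number, Hsp90, Dnaja, Dnajb, Dnajc, Cct or Pfdn with a number, together with Tcp1, Stip1, Hsf1, Hsf2 and Bag3 to Bag6. Symbols carrying the pseudogene mark -ps were left out. This gave 82 of the 18877 genes in the table, and the rule used no measured value. The 2 samples formed 1 group, untreated C57BL6 PGCs of E9.5 embryos isolated with an antibody to SSEA1, and the series describes them as biological repetitions. The methods describe flow sorting with antibodies to CD61 and SSEA1, or magnetic sorting with SSEA1 alone, without tying either to this stage. SSEA1 is a carbohydrate on the PGC surface that other embryonic cells can also carry, so isolation by SSEA1 enriches PGCs without separating them fully. The methods name female embryos and cDNA made by Smart-seq2, whereas the labels name a NEBNext kit, so which chemistry the libraries had is uncertain. The methods on isolating these PGCs name no transgene, agent or mouse line, so whether the embryos carried a reporter gene is not known. No library of another stage was analysed here, so every comparison runs between genes or between the 2 replicates.

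Chaperones bind polypeptides that are not yet, or no longer, folded. HSP70 proteins bind short hydrophobic stretches in a cycle driven by ATP, J-proteins (Dnaj) bring them substrates and start ATP hydrolysis, and BAG proteins and HSP110 release the nucleotide. HSP90 takes over partly folded clients such as kinases and receptors, often through the adaptor Stip1. The chaperonins are closed chambers: TRiC, built from Tcp1 and the Cct subunits, folds actin and tubulin that prefoldin delivers, while Hspd1 and Hspe1 form the chamber and lid of mitochondria. Heat shock factors bind heat shock elements, inverted repeats of a short GAA unit, and switch on part of these genes under stress.

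Regulatory sequences near the start sites show which members carry the letters of such elements. They are shown for members at both ends of the expression range, and come from RefSeq on GRCm38.p6, 5′ to 3′ on the strand of the gene. Capitals mark the heat shock element units of Hspe1, Dnajb6, Hspa1a, Hspa1b and Hspb1, and the outer blocks of the ER stress element of Hspa5, Hsp90b1 and Dnajc3. The window of Hsp90b1 holds 2 ER stress elements, of which the one nearer the start site is shown, and it reads on the opposite strand.
Hspe1 chr1:55088053-55088082, + strand: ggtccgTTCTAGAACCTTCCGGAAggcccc
Dnajb6 chr5:29735844-29735873, + strand: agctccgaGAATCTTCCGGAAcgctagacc
Hspa1a chr17:34972227-34972286, - strand: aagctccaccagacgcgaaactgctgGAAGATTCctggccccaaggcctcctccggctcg
Hspa1b chr17:34959309-34959368, - strand: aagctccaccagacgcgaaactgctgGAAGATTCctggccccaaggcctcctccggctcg
Hspb1 chr5:135887786-135887845, + strand: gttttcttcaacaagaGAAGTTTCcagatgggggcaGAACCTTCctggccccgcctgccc
Hspa5 chr2:34772020-34772049, + strand: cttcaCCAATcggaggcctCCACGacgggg
Hsp90b1 chr10:86705513-86705571, - strand: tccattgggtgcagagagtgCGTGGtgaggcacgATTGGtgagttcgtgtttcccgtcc
Dnajc3 chr14:118937807-118937865, + strand: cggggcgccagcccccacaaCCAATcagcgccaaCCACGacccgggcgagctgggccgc

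The Hspe1 stretch holds 4 alternating units in a row and lies 95 to 66 bases before the Hspe1 start site. The same bases lie in the Hspd1 window, because Hspe1 and Hspd1 are read in opposite directions from neighbouring start sites. RefSeq gives Hspe1 a start at 55088148 and Hspd1 a start at 55087932, which is 216 bases away, and another at 55088243, from which Hspd1 runs across the Hspe1 start. The printed stretch overlaps an Hspd1 exon in GENCODE. Dnajb6 holds 3 units, Hspa1a and Hspa1b 2 units each, and Hspb1 a pair of elements with 2 units each. The printed stretches of Hspa1a and Hspa1b read alike, and their full windows were identical at 296 of 300 bases.

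A window from 250 bases before to 50 after the start site was given for 66 of the 82 members. Hsp90aa1, Hsp90ab1 and Hspa8, which are 3 of the 4 highest members, had none, so these shares and medians do not cover them. The 2-unit heat shock element, GAANNTTC or TTCNNGAA on either strand, was in the windows of 18 of 66 members, 27.3%, against 17.0% of 27025 genes with a window. The 3-unit form, GAANNTTCNNGAA or TTCNNGAANNTTC, always contains the 2-unit form and was in 4 members, Hspe1, Hspd1, Dnajb6 and Hsph1, 6.06% against 0.662%. The ER stress element, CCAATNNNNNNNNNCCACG on either strand, was in Hspa5, Hsp90b1 and Dnajc3, 4.55% against 0.137%. Among the 10839 genes in the table with a window, the shares were 14.3%, 0.544% and 0.194% in that order. The 3-unit matches of Hspe1 and Hspd1 are the same bases, so that stretch is counted under both names. All of these are matches of letters, not measured binding. Members with a 2-unit element had median levels of 3.93 in replicate 1 and 4.08 in replicate 2 on the log2(TPM + 1) scale, and members without one 4.61 and 4.45. For the 3-unit form the medians were 6.64 and 6.57 with it and 4.39 and 3.94 without, and for the ER stress element 6.27 and 6.05 with it and 4.45 and 4.38 without. The longer elements thus lay in members of higher median level and the 2-unit form in members of lower median level, over only 4 and 3 members for the longer ones. Among the 18 were Hspe1, at 919 ± 82.1 (SD, n = 2) TPM, and Hspa1a and Dnaja4, which were near or at 0.

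Levels are given in TPM, a relative unit of transcript abundance that is scaled to a fixed total, divides reads by gene length and therefore allows levels of different genes to be compared. The read numbers recovered from the table were 15912466 in replicate 1 and 5458695 in replicate 2, a depth ratio of 2.92, so low values were measured less precisely in replicate 2. All 11 PGC markers were detected in both libraries, led by Dppa3 at 5013 and 5075 TPM. Of 9 erythroid markers, 7 were in the table, 6 were detected in both libraries, and their sum was 4002 and 3780 TPM. Markers of macrophages summed to 19.4 and 9.53 TPM, and those of endothelium to 4.71 and 1.01. Muscle and heart markers summed to 10.4 and 13.0 TPM over the 3 of 7 in the table, and neural ones to 6.41 and 7.05 over 3 of 4. No cell type marker in the table was at 0 in both libraries. Red cell precursors also express chaperones, and the part of the erythroid RNA in the members' levels was not tested. In bulk samples, fewer cells of a type and less RNA per cell cannot be told apart.

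Chaperone genes ranged from one of the most abundant transcripts of the PGCs to genes listed at 0. Of the 82 members, 66 were detected, which here means 1 TPM or more in each library, and this is 80.5% against a background of 60.0% of all genes and 69.5% of protein-coding genes. A mean of at least 100 TPM was reached by 25 members, 30.5% of them, against 6.97% of protein-coding genes. The median member was at 4.44 in replicate 1 and 4.19 in replicate 2 on the log2(TPM + 1) scale, a mean of 4.32 ± 0.17 (SD, n = 2). All genes had medians of 1.89 and 1.85 on that scale, and protein-coding genes 2.29 and 2.21. Together the members held 1.23% of the summed TPM in each library. A single gene exceeded 1000 TPM, 24 lay between 100 and 1000, 25 between 10 and 100, 18 between 1 and 10, and 14 below 1. These levels divide reads by the summed length of all exons, and with principal transcript lengths 23 of the 81 members with such a length were over 1.5-fold higher, and 4, Hsp90aa1, Hspe1, Dnajc19 and Hspa8, exceeded 1000 TPM. When members were ordered by mean TPM, 54 of the 81 neighbouring pairs had replicate ranges that overlapped, so the order is firm only in its broad steps.

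**Figure D1:**
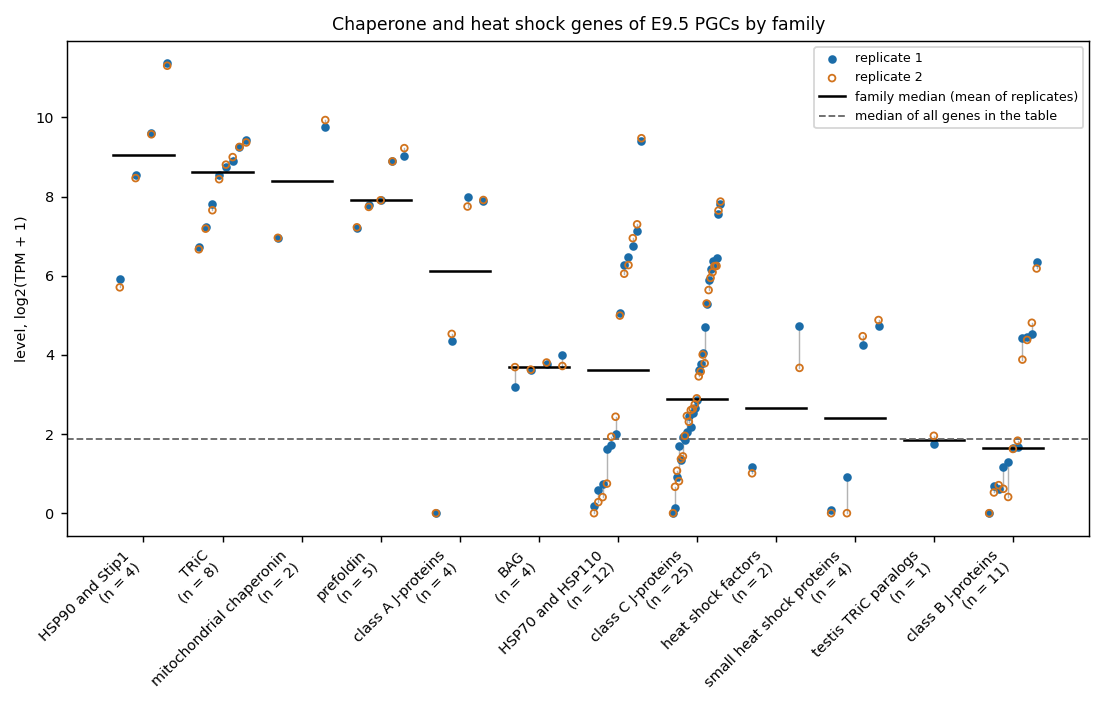
Level of each chaperone and heat shock gene as log2(TPM + 1), by family, with filled points for replicate 1, open points for replicate 2, a bar at the family median and a dashed line at the median of all genes. HSP90 with Stip1, TRiC, the mitochondrial chaperonin and prefoldin had medians between 7.91 and 9.05, whereas the HSP70 and J-protein families spread from 0 or near 0 to over 6.

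The families fell into an upper and a lower tier. The medians, as means of both replicates on the log2(TPM + 1) scale, were 9.05 for HSP90 with Stip1, 8.63 for TRiC, 8.40 for the mitochondrial chaperonin and 7.91 for prefoldin. Class A J-proteins followed at 6.13. The remaining families of more than 1 gene had medians of 3.70 for BAG, 3.63 for HSP70 with HSP110, 2.88 for class C J-proteins, 2.65 for heat shock factors, 2.41 for small heat shock proteins and 1.64 for class B J-proteins. The order of this lower tier depended on the scarce members. Over members with a mean of at least 1 TPM, the medians were 6.16 for HSP70, 4.58 for small heat shock proteins, 4.28 for class B, 3.70 for BAG, 3.61 for class C and 2.65 for heat shock factors. Every subunit of TRiC, prefoldin and the mitochondrial chaperonin was above 100 TPM in both libraries, whereas the HSP70 and J-protein families mixed a few abundant members with many scarce ones. HSP90 with Stip1 held 31.2% and 30.1% of the members' summed TPM, and TRiC 24.8% and 24.6%.

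Hsp90aa1, the stress-inducible cytosolic HSP90, was the highest member. The gene lies on chromosome 12, from 110690605 to 110702728 on the minus strand of GRCm38, the build of all positions given here. Its level was 2644 TPM in replicate 1 and 2530.3 in replicate 2, which placed it at rank 48 among the 18877 genes. Hsp90ab1, the cytosolic HSP90 usually described as constitutive, was at 776 and 761 TPM. The ratio of Hsp90aa1 to Hsp90ab1 was 3.41 and 3.33, so the form known as inducible was the more abundant in both libraries. Hsp90b1, the HSP90 of the endoplasmic reticulum (ER), was at 372 and 353 TPM. Stip1, which holds HSP70 and HSP90 together during client transfer, was far below its partners at 58.9 and 51.2 TPM. The replicate ranges of these 4 genes did not overlap.

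Sequence sharing bears on Hsp90aa1. Of the 100-base words in its transcripts, 38% also occurred in other genes, mainly the processed pseudogenes Gm12346 and Gm5844, and none of those in Hsp90ab1 did. Gm12346 was listed at 106 and 108 TPM and Gm5844 at 41.2 and 49.4. How reads that map to several places were treated is not stated, so reads from the stretches shared with these copies cannot be told apart. Within Hsp90b1, the transcript Gm15344 lay on the same strand with 5079 reads beside the 14245 of Hsp90b1 in replicate 1.

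The HSP70 family was led by constitutive forms. Hspa8, the main cytosolic HSP70 of unstressed cells, was at 677 TPM in replicate 1 and 710.0 in replicate 2. Hspa9, the mitochondrial HSP70 that pulls proteins through the import channel, was at 107 and 122 TPM. Hspa5, the HSP70 of the ER known as BiP, was at 76.1 and 65.3 TPM, which made Hspa8 8.90 and 10.9 times as abundant as Hspa5. With principal transcript lengths that mean ratio rose from 9.89 to 15.4. Compartments thus differed in level, with the cytosolic form highest and the ER form lowest of these 3. Hspa4 and Hsph1, which act as nucleotide exchange factors of HSP70, were at 138 and 156 TPM and at 32.4 and 30.8 TPM.

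Hspa14, a divergent HSP70 that works at the ribosome with the J-protein Dnajc2, was at 88.0 and 76.1 TPM. Dnajc2 was at 75.8 and 74.7 TPM. The replicate ranges of this ribosome-bound pair did not overlap, but the lower value of Hspa14 lay close to the higher value of Dnajc2. Hspa13, a microsomal HSP70, was at 3.03 and 4.42 TPM, and Hspa4l, an HSP110 relative abundant in testis, at 2.33 and 2.82 TPM.

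The strongly heat-inducible HSP70 genes were below the detection limit of 1 TPM in both libraries. Both lie on chromosome 17, Hspa1b from 34956436 to 34959238 and Hspa1a from 34969190 to 34972156. Hspa1b was at 0.488 TPM in replicate 1, from 13 reads, and at 0.213 TPM in replicate 2, from 2 reads. Hspa1a was at 0.142 TPM from 4 reads in replicate 1 and at 0 in replicate 2, where 3 reads would give 0.302 TPM. Hspa1a in both libraries and Hspa1b in replicate 2 therefore sat near or below the floor set by 3 reads. Hspa1b in replicate 1 lay above that floor, which was 0.113 TPM. The windows of both genes hold the heat shock element printed above. Of their 100-base words, 56.5% for Hspa1a and 49.9% for Hspa1b occurred in other genes, mostly in each other. The protein-coding gene Gm20481 overlaps Hspa1a on the opposite strand and was listed with the same 4 reads, so reads of these 2 genes cannot be told apart.

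Hspa2, the HSP70 of meiotic spermatocytes, was at 2.07 TPM from 52 reads and 0.679 TPM from 6 reads. Its exact 95% Poisson intervals, which cover counting error only, were 1.55 to 2.71 and 0.249 to 1.48 TPM and did not overlap. Hspa12b, a distant relative known from endothelium, was at 0.657 and 0.325 TPM. These 2 and the heat-inducible pair were the 4 HSP70 genes not detected in both libraries.

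For Hspa8, 28.5% of the 100-base words were shared with other genes. The processed pseudogene Gm15459 and the lincRNA Gm26825 lie on opposite strands of the same stretch and were listed with 8324 and 8326 reads in replicate 1 and with 3290 each in replicate 2. The pseudogene thus stood at 451 and 507 TPM, below Hspa8 in both libraries. Whether the same reads were counted under both names was not tested. Reads from the stretches that Hspa8 shares with its copies cannot be told apart here, and the level of Hspa8 is uncertain to that extent.

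Both parts of the mitochondrial chaperonin were abundant, the lid more than the chamber. Hspe1, the lid, was at 861 and 977 TPM and was the second highest member. Hspd1, the chamber, was at 123 and 123 TPM. Their ratio was 7.02 in replicate 1 and 7.92 in replicate 2, and with principal transcript lengths the mean ratio was 13.0. Of their 100-base words, 23.9% of those of Hspd1 and 11% of those of Hspe1 occurred in other genes, among them the pseudogene Hspd1-ps3 at 2.99 and 9.03 TPM.

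All 8 subunits of TRiC were above 100 TPM in both libraries. Cct8 was highest at 692 and 659 TPM and Cct7 lowest at 104 and 101. Between them, in falling order of the mean, came Cct2 at 613 and 609.7 TPM, Cct5 at 474 and 509.9, Tcp1 at 429.8 and 447, Cct4 at 370.2 and 346, Cct6a at 224 and 200.5, and Cct3 at 148 and 145. No neighbouring pair in this order overlapped between replicates, so the order was the same in both libraries. TRiC holds its 8 different subunits in equal number, whereas the transcript levels spanned 6.66-fold in replicate 1 and 6.55-fold in replicate 2. Cct6b, the testis paralog of Cct6a, was at 2.36 and 2.88 TPM, from 42 and 18 reads.

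The spread within TRiC depended on the length used. The table divided reads by the summed length of all annotated exons, 6370 bases for Cct3 and 6778 for Cct7, which includes exons of minor transcripts. With the length of the principal transcript, an alternative chosen after seeing the data, Cct3 moved to 435 and 428 TPM and Cct7 to 263 and 256 TPM. The span then fell to 3.09-fold and 3.29-fold over the 7 subunits with such a length. Cct6a, annotated as a processed transcript, had none. Tcp1 became the highest of the 7 on average, at 805 and 842 TPM beside 813 and 779 TPM for Cct8, and their ranges overlapped.

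**Figure D2:**
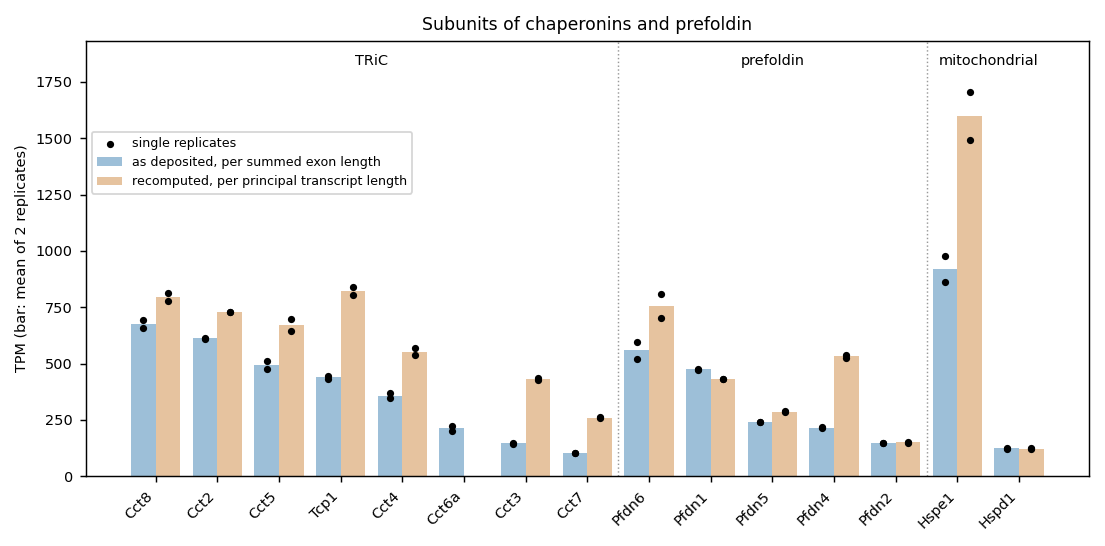
TPM of the subunits of TRiC, prefoldin and the mitochondrial chaperonin, with bars for the mean of 2 replicates, points for single replicates, blue for values as deposited and orange for values recomputed with the principal transcript length. By fold, Cct3 and Cct7 rose most within TRiC when the principal length was used, while in TPM Tcp1 did, and Cct6a has no orange bar.

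Prefoldin, which hands newly made actin and tubulin to TRiC, was abundant in every subunit. Pfdn6 was at 521 and 597 TPM and Pfdn1 at 476 and 473. Pfdn5 was at 239 and 239 TPM, Pfdn4 at 219 and 213, and Pfdn2 at 146 and 148. The order was the same in both libraries, with a span of 3.57-fold and 4.02-fold. With principal transcript lengths the span was 4.72-fold and 5.32-fold, and Pfdn4, at 539 and 525 TPM, passed Pfdn1, at 433 in each. Vbp1, the remaining subunit of the hexamer, which the symbol rule did not take, was at 292 and 236 TPM.

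Among the small heat shock proteins, which hold unfolded proteins without ATP, the levels were low. Hspb11, an intraflagellar transport protein in spite of its symbol, was highest at 25.6 and 28.5 TPM, and at 79.3 and 88.8 with principal transcript lengths. Hspb1, the widely expressed stress-inducible member, was at 17.9 and 21.2 TPM. Hspb2 was at 0.883 TPM from 7 reads in replicate 1 and at 0 in replicate 2, and Hspb8 at 0.0539 TPM from a single read and at 0. Both are best known from muscle. Hspb1 thus carried nearly all the expression of true small heat shock proteins, and 44.0% of its 100-base words occurred elsewhere, mainly in Hsp25-ps1, which was listed at 2.50 and 1.90 TPM.

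J-proteins of class A resemble bacterial DnaJ and assist general folding. Dnaja1 was at 236 and 240.0 TPM and Dnaja2 at 252 and 214, with overlapping ranges. Dnaja3, the mitochondrial form, was at 19.4 and 22.1 TPM. Dnaja4 was listed at 0 in both libraries, where 3 reads would give 0.0879 and 0.250 TPM. Of its 100-base words, 41.5% were shared with Wdr61, which overlaps it on the opposite strand and was listed with 7706 and 2325 reads. The class was thus carried by Dnaja1 and Dnaja2.

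Class B had the lowest family median, 1.64 on the log2(TPM + 1) scale, with most of its 11 members scarce. Its summed TPM of 152 and 139 exceeded those of the BAG, small heat shock protein and heat shock factor families. Dnajb6, known to suppress aggregation, led at 80.0 and 71.6 TPM, and at 275 and 248 with principal transcript lengths. Dnajb1, the inducible partner of cytosolic HSP70, was at 22.2 and 27.1 TPM. The ER members Dnajb11 and Dnajb9 were at 20.9 and 19.8 TPM and at 20.5 and 13.7 TPM. These 4 stood apart from the other 7, all of which had a mean below 3 TPM. Dnajb4 was at 2.14 and 2.08 TPM and Dnajb3, a testis gene, at 2.20 and 2.56. Dnajb12 and Dnajb14, membrane J-proteins of the ER, were at 1.25 and 0.533 TPM and at 0.615 and 0.437. Dnajb2, best known from neurons, was at 0.520 and 0.634 TPM, and Dnajb13, a part of sperm flagella, at 1.46 and 0.328. Dnajb8, another testis gene, was listed at 0 in both.

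Class C J-proteins share only the J domain and serve many tasks, and their levels spread widely. Dnajc19, a part of the mitochondrial import motor, led at 224 and 233 TPM. With the principal transcript, 659 bases against 4027 of summed exons, it rose to 1245 and 1307 TPM, the largest fold shift among the 81 members with such a length. Dnajc8, found with splicing factors, was at 186 and 199 TPM, and Dnajc9, a histone chaperone, at 85.7 and 75.0. These members work in import, splicing and chromatin rather than in general folding. Dnajc24, needed to make the diphthamide residue of a translation factor, was at 81.8 and 67.1 TPM, and Dnajc14 at 71.3 and 60.6. Of the 25 class C genes, 21 were detected in both libraries, and the 7 not named here had means between 2.24 and 53.5 TPM. The 4 lowest were Dnajc18 at 2.24 and 0.752 TPM, Dnajc16 at 0.889 and 1.10, Dnajc28 at 0.0886 and 0.588, and Dnajc5g, a testis gene, at 0 in both. Dnajc19-ps, left out by the rule, was listed at 349.8 and 361 TPM, from 1167 and 424 reads over 351 bases. Dnajc19 had more reads, 8560 and 3143, but over 4027 bases, so its lower deposited TPM rests on the length used. Of the 100-base words of Dnajc19-ps, 37.7% occurred in Dnajc19.

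The BAG genes stood close together. Bag5 was at 15.0 and 12.2 TPM, Bag6, which guards membrane proteins on their way to the ER, at 12.5 and 13.0, and Bag4 at 11.3 and 11.4. Bag3, which links HSP70 to autophagy and is induced by stress, was lowest on average at 8.05 and 11.9 TPM. Its range reached that of Bag4, and the ranges of Bag5 and Bag6 overlapped too.

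The 2 heat shock factors differed by more than 10-fold. Hsf1, the main factor of the heat response, was at 1.24 TPM in replicate 1, from 84 reads, and 1.01 in replicate 2, from 24 reads. Hsf2, a factor with known roles in germ cell development, was at 25.7 TPM from 2350 reads and 11.7 TPM from 377 reads. Hsf2 was thus above Hsf1 in both libraries, by 20.7-fold and 11.6-fold (a mean of 17.5-fold with principal transcript lengths), but its own level was not stable between them. Its exact 95% Poisson intervals, 24.7 to 26.8 and 10.6 to 13.0 TPM, lay far apart, so the gap exceeded counting error. Hsf2 lies on chromosome 10, from 57486385 to 57513135. It had the largest replicate difference of the members at a mean of at least 10 TPM, -1.07 on the log2(TPM + 1) scale.

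**Figure D3:**
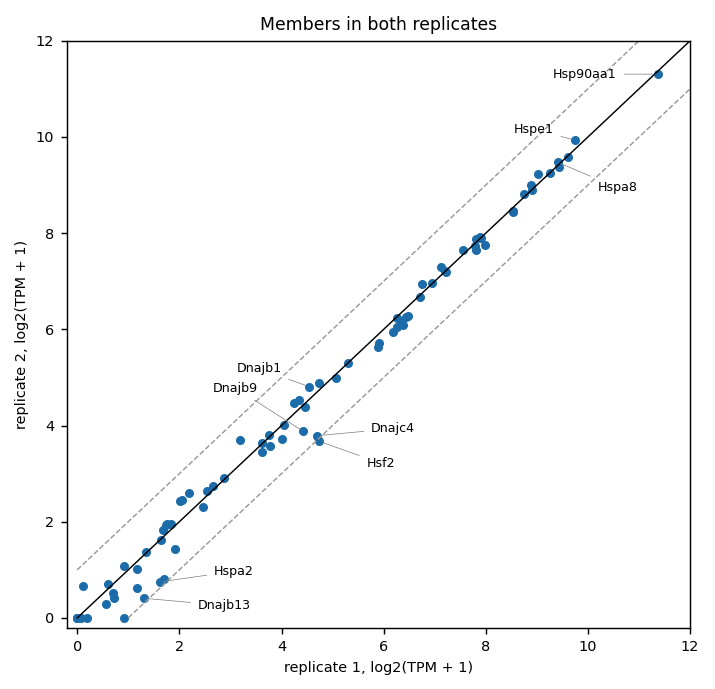
Level of each member in replicate 1 (x axis) and replicate 2 (y axis), both as log2(TPM + 1). The solid line marks equality and the dashed lines a difference of 1 on that scale. Members above 6 lie close to the line, and Hsf2 is the only one beyond the dashed lines.

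Most members differed little between replicates, with Hsf2 as the main exception. Over 2-fold here means a difference of more than 1 on the log2(TPM + 1) scale. By this measure no member was over 2-fold higher in replicate 2, against a background of 4.31% of all genes. In replicate 1, 1 of 82, Hsf2, was over 2-fold higher, against 5.89%. At low levels this scale hides larger TPM ratios, as for Dnajc28, at 0.0886 and 0.588 TPM, and Hspa2, at 2.07 and 0.679. With log2(TPM + 0.1), which weighs low values more, 8 members differed over 2-fold. The share of all genes on that scale was not computed, so this count has no background. The median difference, replicate 2 minus replicate 1, was -0.02 over the members and -0.01 over all genes on the log2(TPM + 1) scale, and 0.0033 over the members when libraries were scaled by their median ratio. The median absolute difference was 0.16 for members and 0.26 for all genes. Among the 25 members with a mean of at least 100 TPM, no difference exceeded 0.24. The members that rose most at a mean of at least 10 TPM were Dnajb1 by 0.28, Hspb1 by 0.23 and Hspa9 by 0.19, and those that fell most after Hsf2 were Dnajc4 by 0.91, from 24.9 to 12.8 TPM, and Dnajb9 by 0.54. With 1 group of 2 libraries these differences describe the libraries, and no test was possible.

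Grouped by role under stress, the inducible genes did not share 1 level. Of 14 genes listed as heat-inducible, 12 were detected in both libraries, with medians of 4.80 and 4.90 on the log2(TPM + 1) scale. The list includes Hspa8, described above as a constitutive form. At the top stood Hsp90aa1, Hspe1 and Hspa8, which unstressed cells also express, and at the bottom of this list Hspa1a and Hspa1b, known for strong induction by heat. Dnajb1, Hspb1 and Bag3 lay between 8.05 and 27.1 TPM in every library. Early response genes are known to rise when tissue is dissociated. Of 12 listed, 7 were detected in both libraries, with Ier2 highest at 33.2 and 40.3 TPM, Dusp1 at 20.8 and 18.3, Fos at 9.30 and 11.6, and Fosb lowest at 0.135 and 0.144. Their part in the levels of the inducible members was not tested.

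By compartment, the 8 mitochondrial members were all detected, with medians of 6.02 and 6.12 on the log2(TPM + 1) scale. All 8 were at least slightly higher in replicate 2, as were 35 of the 82 members and 7715 of the 18877 genes. The differences were as small as 0.0037 for Dnajc15 and 0.0081 for Hspd1, and a shared shift was not tested. Below Hspe1, Dnajc19, Hspd1 and Hspa9, and above Dnaja3, came Dnajc15, a relative of Dnajc19 in the import motor, at 38.2 and 38.3 TPM. Dnajc11, which associates with complexes that shape the inner membrane, was at 6.29 and 6.47 TPM, and Dnajc30 at 4.81 and 5.22. The lowest of the group were thus still above the median gene.

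Of the 13 members placed in the ER, 9 were detected in both libraries, with medians of 2.01 and 2.44 on the same scale. Hsp90b1 was 4.89 and 5.40 times as abundant as Hspa5, its partner in the ER lumen. Dnajc3, which assists Hspa5 and damps the unfolded protein response, was at 12.7 and 10.9 TPM, and Dnajc10, which reduces disulfides before degradation, at 11.4 and 9.98. The 3 members that carry the ER stress element, Hsp90b1, Hspa5 and Dnajc3, were all within the top 5 of the 13 by mean TPM. Dnajc1, at 2.59 and 2.88 TPM, and Dnajc25, at 1.55 and 1.58, were low. The protein-coding gene Gm20503 overlaps Dnajc25 on the same strand and was listed at 37.4 and 36.1 TPM. How reads of their shared stretch were assigned is not stated.

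**Figure D4:**
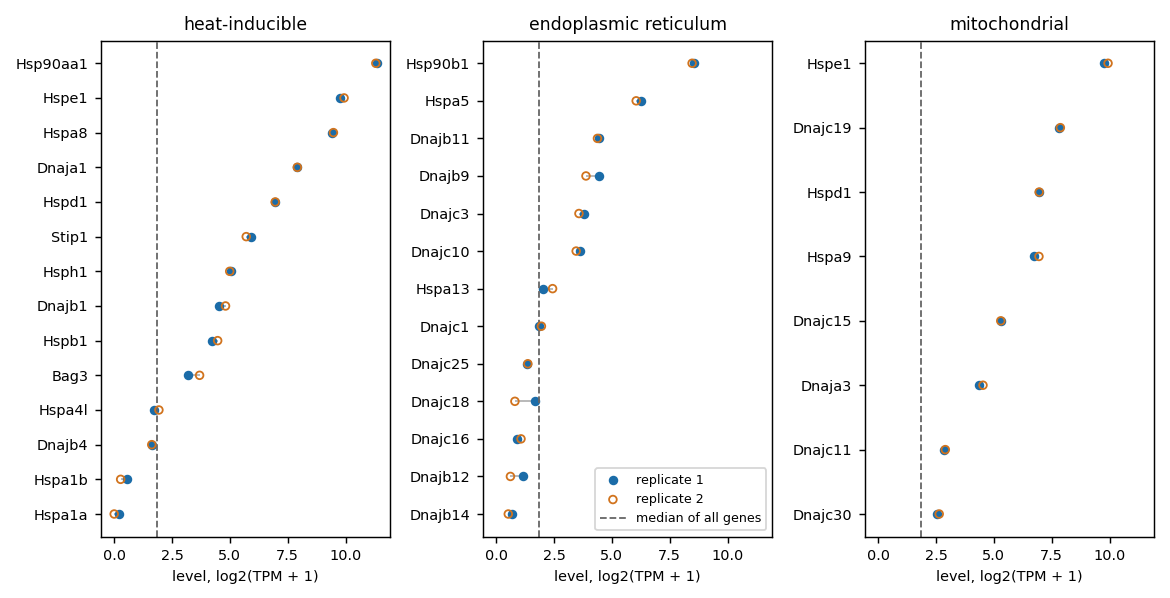
Level as log2(TPM + 1) of the heat-inducible, ER and mitochondrial members, with filled points for replicate 1, open points for replicate 2 and a dashed line at the median of all genes. Hspa1a and Hspa1b lie below the line at the foot of the heat-inducible panel, and every mitochondrial member lies above it.

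Of 11 testis-enriched chaperones, 6 were in the table and 2, Cct6b and Dnajb3, were detected in both libraries. The highest of the 6 had a mean of 2.62 TPM, and the other 5 genes of the list were not analysed here.

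The partners of these chaperones that the symbol rule did not take were mostly detected too. Of 17 co-chaperones, 16 were detected in both libraries, with medians of 4.42 and 4.10 on the log2(TPM + 1) scale. Ptges3, known as p23, which closes the HSP90 clamp on its client, was at 713 and 564 TPM, Nudc at 202 and 233, and Ppid, an HSP90-bound prolyl isomerase, at 240.1 and 176. Bag2 was lowest at 0.791 and 0.587 TPM. Ptges3 was therefore below Hsp90ab1 but far above Stip1 in both libraries.

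All 7 partners of TRiC and prefoldin were detected, with medians of 5.32 and 5.20 on the log2(TPM + 1) scale. After Vbp1 came Txndc9, a TRiC cofactor, at 120.2 and 103 TPM and Uxt at 44.5 and 35.8, and Uri1, a prefoldin-like protein, was lowest at 13.5 and 9.94. The medians of this list lay below those of the subunits they serve. All 10 genes of mitochondrial protein quality were detected, with medians of 5.41 and 5.42. Hscb, a J-protein of iron-sulfur cluster assembly with another kind of symbol, was highest at 185 and 184 TPM, the proteases Yme1l1 and Clpp followed at 138 and 98.0 TPM and at 134 and 100.1, and Clpb lowest at 7.12 and 5.83.

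Of 19 genes of ER folding and the unfolded protein response, 18 were detected in both libraries, with medians of 4.50 and 4.38 on the log2(TPM + 1) scale. Canx, the lectin chaperone calnexin, was at 142 and 110.3 TPM, Creld2 at 123 and 93.5, and Calr, calreticulin, at 61.1 and 63.6. The sensor gene Ern1 was lowest at 0.129 and 0.403 TPM. Lectin chaperones were thus among the highest of the list, and a stress sensor was lowest. Hypk, Btf3 and Naca, which bind chains as they leave the ribosome, were at 385 and 440.3 TPM, at 398 and 396, and at 217 and 205. Of 5 other heat shock factors and small heat shock proteins, 2 were in the table and neither was detected in both libraries, with Cryab at 1.35 and 0 TPM and Hsf5 at 0 and 0.216.

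Shared sequence limited fewer members than it spared. Of the 82, 59 had under 5% of their 100-base words in any other gene and 10 had over 20%. A further limit is that 34 members overlap another annotated gene in the table, and the strand setting of the counting is not stated. Dnajc14 shared 15.6% of its 100-base words with Ormdl2, which overlaps it on the opposite strand and was listed at 330 and 282 TPM. Tcp1 shared 8.93% with Acat3, also on the opposite strand, at 489 and 541 TPM. Members with much shared sequence were Hspa1a, Hspa1b, Hspb1, Dnaja4, Hsp90aa1, Dnajb8, Hspa8, Hspd1, Pfdn2 and Dnajc30, and the values of these 10 are less certain than their replicate spread shows.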

How the data were processed

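RNA was sequenced from 2 samples of E9.5 PGCs. Per the methods, the authors mapped clean reads to mm10 with Hisat2, counted them per gene with featureCounts and deposited TPM per gene. The submitters' processing notes also name Bowtie2, RSEM, DESeq2 and R 3.4.2, without a role for this table. The annotation, strand handling and treatment of reads mapping to several places are not given in the sources used here.

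Symbols were matched to GENCODE M21 on GRCm38. TPM times summed exon length gave whole multiples of 1 amount per library, taken as 1 read: among values under 50 reads, 96.7% and 95.8% came within 0.02 of a whole number. Totals of 15912466 and 5458695 reads include a read once for each gene it was counted for. Of the 82 members, 76 came out whole in both libraries, and read numbers are printed only for these. Exact 95% Poisson intervals and the limit of 3 reads cover counting error only. Recovery was checked on simulated data built with the same exon lengths, so the check could not test whether the authors used those lengths. The alternatives were another pseudocount, filters on low values and short genes, another scaling and other detection limits. The principal transcript length was added after seeing the data.

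Levels were put on the log2(TPM + 1) scale, where differences at low levels are compressed. Since both libraries belong to 1 group, nothing was tested. The members and lists were chosen with earlier results of these data known. Every member of a family of 12 or fewer was named, of the longer family the 6 highest and 4 lowest, members on the stress, compartment and testis lists, the 3 largest rises and falls between replicates at a mean of at least 10 TPM, and of each partner list the 3 highest and the lowest. Shared sequence was counted in 100-base words of GENCODE transcripts on either strand. Protein sequences were not analysed here. Analyses used Python 3.11.15, numpy 2.4.6, pandas 2.3.3, scipy 1.17.1 and matplotlib 3.10.9.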

Additional observations from a re-analysis of the deposited data

How the results depend on the processing

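Over 26 results, 143 alternative values were computed. The median member level, 4.32 on the log2(TPM + 1) scale, was 5.53 over genes with a mean of at least 1 TPM, 4.52 without genes under 200 exonic bases and 4.52 with principal transcript lengths. The members' share of the summed TPM, 1.23%, was 1.43% without those short genes and 1.76% with principal transcript lengths. Members differing by over 1 between replicates numbered 1 on the log2(TPM + 1) scale as reported. They numbered 8 with log2(TPM + 0.1) and 2 without the short genes. The share of all genes was not computed for these alternative settings. The median replicate difference of -0.02 turned to 0.0033 under median-ratio scaling, which divided replicate 2 by 0.973. The detected members numbered 53 at a limit of 5 TPM and 71 at 0.5. Family medians moved most over genes with a mean of at least 1 TPM, from 3.63 to 6.16 for HSP70, from 2.41 to 4.58 for small heat shock proteins, from 1.64 to 4.28 for class B and from 6.13 to 7.82 for class A J-proteins. From a single replicate, the member level was 4.19 to 4.44, the detected members 67 to 70 and the share 1.23%.

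Among the ratios between members, principal transcript lengths moved the mean of Hspa8 to Hspa5 from 9.89 to 15.4, of Hspe1 to Hspd1 from 7.47 to 13.0 and of Cct8 to Cct7 from 6.60 to 3.07. Levels compared between genes therefore depend on the gene length assumed. No paired analysis was possible because there was 1 group. The planned protein features were not run. In replicate 2, the shallower library, 14 members rested on fewer than 10 reads.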
